A study of Jatropha curcas with 10 samples.

Results

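The comparison described here asks which transcripts of the Jatropha curcas inflorescence meristem still differed from their starting level 24 h and 48 h after treatment with GA3 (gibberellic acid, a gibberellin). Jatropha curcas is an oilseed shrub, and the inflorescence meristem is the growing tip that forms the flowers. The 4 libraries of 24 h and 48 h, pooled as 1 late group, were set against the 2 libraries of 0 h, so 6 of the 10 libraries of the series entered. The other 4, taken at 6 h and 12 h, serve below as the early group. All plants were 3 years old and all samples were labelled by hours after GA3, 0 h included. The labels name no line, dose or mode of application, and no untreated plants at 24 h or 48 h. The effects of GA3, of elapsed time and of the hour of sampling therefore cannot be told apart.

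Gibberellins act by binding the GID1 receptors, which leads to the destruction of DELLA proteins, nuclear repressors of growth. They promote cell elongation and, depending on the species, hasten or delay the formation of flowers. A rise in gibberellin commonly lowers transcripts of its own biosynthetic enzymes and raises those of enzymes that inactivate it, a feedback that can outlast the first response. The deposited tables identify genes only by locus tag (JCGZ) or by a running number, and 0 of the 28447 IDs matched the reference gene table, so the genes of that pathway could not be picked out and no gene below is given a name or function. Whether tissue markers fit the labelled meristem could not be checked for the same reason.

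Recovered depth was 17977534 to 24448219 reads in the 4 late libraries and 17924974 to 19157081 reads in the 2 libraries of 0 h. Values are RPKM, that is, reads corrected for the length of the gene and the size of the library, and 3 reads on a gene of 1 kb equal 0.123 to 0.167 RPKM in these 6 libraries. In bulk tissue a lower value can come from fewer cells of a type or from less RNA per cell, which cannot be told apart. All differences are on log2(RPKM + 1), which understates those of weakly expressed genes. They were computed for 17323 genes, those that averaged 1 RPKM or more across the 6 libraries.

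No single gene of the late meristems could be separated from its 0 h level once all genes were counted: 0 of 17323 genes (0.0%) had an adjusted p under 0.05 (limma on log2(RPKM + 1), Benjamini-Hochberg), and the smallest adjusted p was 0.261. At an unadjusted p under 0.05 there were 916 genes (5.29%), 319 of them higher (1.84%) and 597 lower (3.45%) late. A count model on the recovered reads (limma-voom) also called 0 genes, with 833 at an unadjusted p under 0.05. The test does not show that the genes stayed the same. For 9800 genes (56.6%) the 95% interval of the difference lay within 2-fold in both directions, and for 95.4% within 4-fold, with a median half-width of 0.71 (log2). These intervals take the late libraries as independent and may be too narrow. Over genes, the difference between libraries 1 and 2 correlated at 0.70 between 24 h and 48 h. The median difference over all genes was -0.08 (log2), with quartiles of -0.28 and 0.09.

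The count of 0 held when any of the 6 libraries was left out. The number at an unadjusted p under 0.05 did not: it was 264 when library 1 of 0 h was left out, 584 when library 1 of 48 h was, and 1412 when library 2 of 48 h was. The lean towards lower values depended on the scaling. Of the genes at an unadjusted p under 0.05, 459 of 824 were lower when each library was centred on its median, 472 of 929 after quantile normalization, and 490 of 1057 after removal of the trend with gene length.

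**Figure D1:**
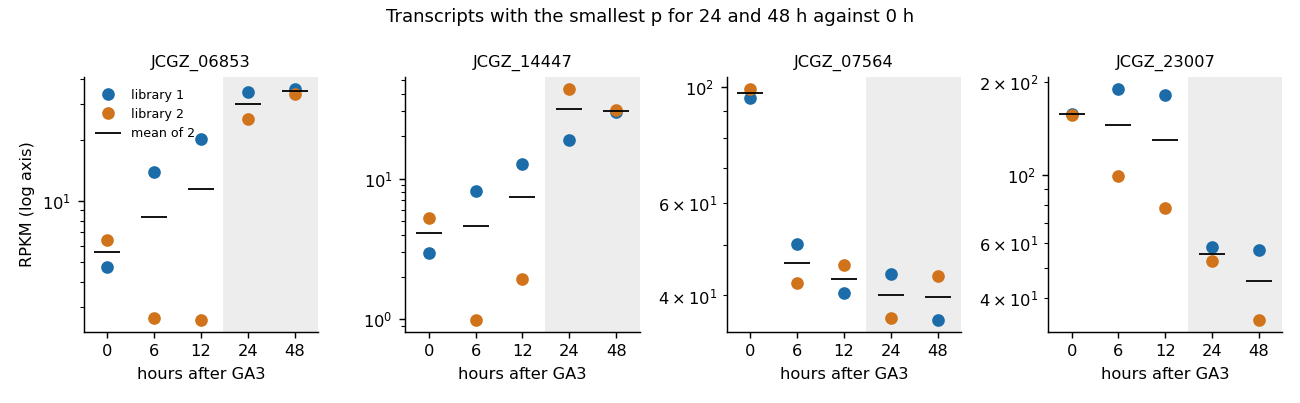
RPKM (log axis) of 4 transcripts in all 10 libraries against hours after GA3, with 1 point per library, a bar for the mean of 2 libraries and the late times shaded. All 4 late libraries of JCGZ_06853 (25.5 to 35.7 RPKM) lie above both 0 h libraries (4.72 and 6.44), and all 4 of JCGZ_07564 (35.9 to 44.0) lie below them (95.6 and 99.4).

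The clearest single transcript was JCGZ_06853, with a length of 567 bases. It stood at 34.5 and 25.5 RPKM at 24 h and at 35.7 and 33.8 RPKM at 48 h, against 4.72 and 6.44 RPKM at 0 h. These rest on 345 to 372 reads in each late library and on 48 and 70 reads at 0 h. The groups do not overlap, and the difference was 2.34 ± 0.25 (log2, SE; 95% interval 1.77 to 2.91; limma unadjusted p = 1.5e-05, adjusted p = 0.261). In between, its libraries disagreed: 13.9 and 2.66 RPKM at 6 h, and 20.3 and 2.59 RPKM at 12 h. Number 1 was high and number 2 below 0 h at both early times, while all 4 late libraries lay above 0 h, with library 2 of 24 h the lowest. In a fit of all 10 libraries the late difference from 0 h had a limma unadjusted p of 0.0126 (adjusted p = 0.856).

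JCGZ_14447, also 567 bases long, showed much the same course. It had 18.8 and 43.5 RPKM at 24 h and 29.6 and 30.8 RPKM at 48 h, against 2.95 and 5.25 RPKM at 0 h. The late libraries averaged 30.7 ± 10.1 RPKM (SD, n = 4) and those of 0 h 4.10 ± 1.62 RPKM (SD, n = 2), a difference of 2.61 ± 0.36 (log2, SE; limma adjusted p = 0.671). At 6 h it had 8.19 and 0.984 RPKM and at 12 h 12.7 and 1.94 RPKM, again with number 2 under the 0 h level.

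Among the transcripts below their 0 h level, JCGZ_07564 (492 bases) was below 0 h from 6 h on. It stood at 44.0 and 36.2 RPKM at 24 h and at 35.9 and 43.6 RPKM at 48 h, against 95.6 and 99.4 RPKM at 0 h. The difference was -1.27 ± 0.20 (log2, SE; limma adjusted p = 0.671). Its 4 early libraries, 50.1 and 42.2 RPKM at 6 h and 40.4 and 45.7 RPKM at 12 h, overlapped the late ones and lay below both libraries of 0 h. The late level minus the early level was -0.16 ± 0.15 (log2, SE; limma adjusted p = 0.726).

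JCGZ_23007 (534 bases) was below both 0 h libraries in all 4 late libraries, and before that in number 2 alone. It had 58.4 and 52.5 RPKM at 24 h and 57.1 and 33.8 RPKM at 48 h, against 157.6 and 156.1 RPKM at 0 h, a difference of -1.65 ± 0.26 (log2, SE; limma adjusted p = 0.671). At 6 h its libraries had 189.6 and 99.3 RPKM and at 12 h 181.3 and 78.2 RPKM, so number 1 lay above 0 h and number 2 below. The late level minus the early level was -1.36 ± 0.32 (log2, SE; limma adjusted p = 0.0778), short of the threshold. None of these 4 genes passed the test at 24 and 48 h. They were taken as the 2 with the smallest p in each direction among genes whose late and 0 h libraries do not overlap and whose higher group averages at least 5 RPKM.

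Across all genes, 687 (3.97%) had all 4 late libraries above both libraries of 0 h, and 1462 (8.44%) had all 4 below. That lean to the lower side depends on scaling, since the counts were 969 and 1087 after median centring, 1179 and 1091 after quantile normalization, and 1427 and 1086 after removal of the length trend. Of these genes, 195 were at least 2-fold higher (1.13%) and 216 at least 2-fold lower (1.25%). After median centring there were 194 higher and 173 lower, and after quantile normalization 228 and 154. With so few libraries, some genes separate in this way without any difference between the groups, and how many was not tested.

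**Figure D2:**
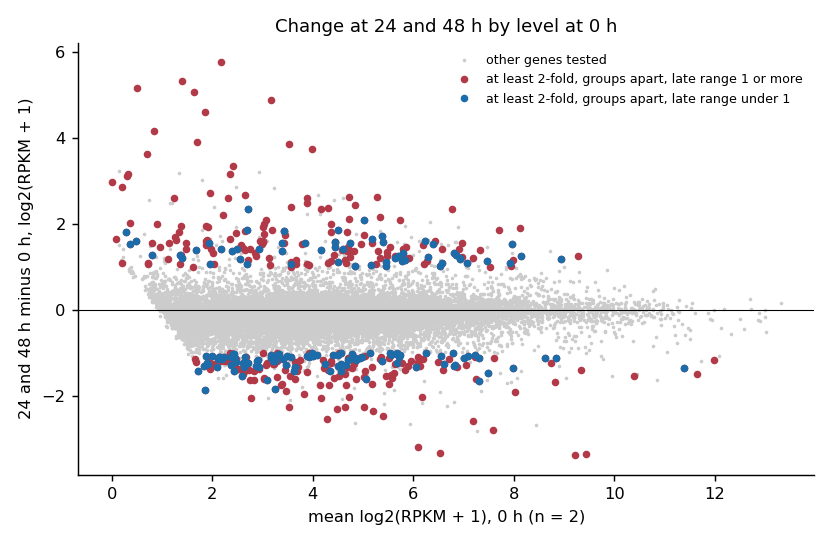
Difference of 24 and 48 h minus 0 h against the mean level at 0 h, both on log2(RPKM + 1), with 1 point per tested gene. Coloured are the 195 higher and 216 lower genes of at least 2-fold whose groups do not overlap, in blue the 57 and 94 of them whose 4 late libraries span less than 1 (log2). The largest differences above 0 h are red, with late libraries that disagree.

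The 195 higher genes had medians of 63.5 RPKM late and 12.1 RPKM at 0 h. The 216 lower genes had medians of 6.78 RPKM late and 18.8 RPKM at 0 h. The higher genes took 2.26% and 1.51% of reads at 24 h and 3.03% and 1.32% at 48 h, against 0.499% and 0.808% at 0 h, with the larger late shares in number 1. The lower genes took 0.575% and 0.351% at 24 h and 0.498% and 0.383% at 48 h, against 1.32% and 1.04% at 0 h. These groups were picked by this same difference, so their levels describe them and test nothing. IDs outside the locus tags made up 2 of the 195 and 15 of the 216, against 903 of the 17323 genes tested.

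Agreement among the 4 late libraries was the exception in the higher group. In 57 of the 195 higher genes and 94 of the 216 lower genes the late libraries spanned less than 1 (log2), as they did in 10735 of all 17323. In 80 of the 195 higher genes the number 1 libraries of 24 and 48 h averaged at least 2-fold above the number 2 libraries, and in 1 the reverse held. Over all genes the counts were 855 and 1292. Of the 216 lower genes, 35 were at least 2-fold higher in number 1 and 14 in number 2. The 57 higher genes with agreeing libraries had a median difference of 1.33 (log2) and took 0.672% to 0.861% of reads in the late libraries, against 0.222% and 0.399% at 0 h. The 94 lower genes with agreeing libraries had a median of -1.14 and took 0.149% to 0.167% late, against 0.385% and 0.352% at 0 h.

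The size of the largest differences above 0 h rested mainly on library 1 of each late time, while library 2 lay above 0 h by less. In 7 genes the fitted difference was 4.17 to 5.76 (log2) with all late libraries above 0 h, and in all 7 library 1 exceeded library 2 by more than 10-fold at both 24 h and 48 h. Of these, 6 share a length of 474 bases, most of them with close tag numbers. Together the 7 genes summed to 5197 RPKM in library 1 and 132.8 RPKM in library 2 of 24 h, and to 7889 and 115.5 RPKM in those of 48 h, against 14.9 and 24.3 RPKM at 0 h. At 6 h the sums were 13210 RPKM in library 1 and 54.7 RPKM in library 2, whereas both libraries of 12 h were high, with 8869 and 4993 RPKM. JCGZ_02890, named after its values were seen, stood highest: 1725 and 35.5 RPKM at 24 h and 2507 and 21.5 RPKM at 48 h, against 2.00 and 5.73 RPKM at 0 h. Its difference of 5.76 ± 1.97 (log2, SE) had a limma adjusted p of 0.837. Equal lengths and close tag numbers may mark copies of similar sequence, and how reads shared by copies were assigned is not stated in the labels.

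**Figure D3:**
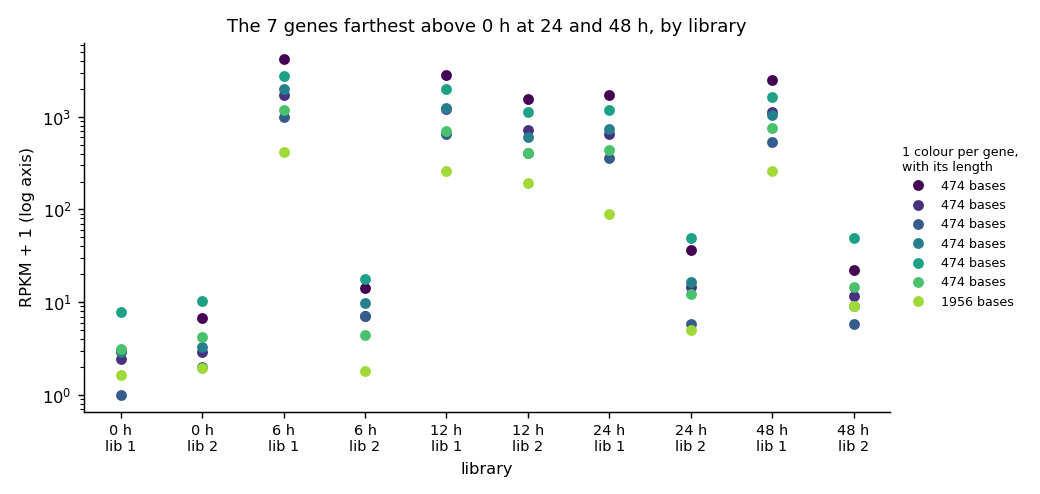
RPKM + 1 (log axis) of the 7 genes farthest above 0 h at 24 and 48 h, 1 colour per gene, in each of the 10 libraries. Library 1 of 6, 12, 24 and 48 h and library 2 of 12 h stand at 89.1 to 4149 RPKM, and library 2 of 6, 24 and 48 h at 0.799 to 48.8 RPKM.

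Taken 1 time at a time, neither late time gave a call. At 24 h against 0 h, limma called 0 of 17323 genes (0.0%), with 578 at an unadjusted p under 0.05 (3.34%) and 0 by limma-voom. At 48 h against 0 h it called 0 (0.0%), with 771 at an unadjusted p under 0.05 (4.45%) and 0 by limma-voom. The median of all genes was -0.15 (log2) at 24 h and -0.02 at 48 h. Both comparisons use the same 0 h libraries, so their lists are not set against each other here.

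By the naming rule, which goes by p and not by size, JCGZ_06853 came first at both times, with 2.23 ± 0.30 at 24 h and 2.45 ± 0.30 at 48 h (log2, SE; limma adjusted p = 0.965 and 0.904). At 24 h the second by p above 0 h was JCGZ_23524 (303 bases), at 53.6 and 39.8 RPKM, against 5.34 and 10.2 RPKM at 0 h. It then had 33.8 and 19.6 RPKM at 48 h. Below 0 h the rule named JCGZ_25096 (444 bases), at 5.35 and 7.92 RPKM, against 25.8 and 48.1 RPKM at 0 h, and JCGZ_18305 (1029 bases), at 5.31 and 5.29 RPKM, against 23.6 and 16.1 RPKM at 0 h. Each of them was nearer to its 0 h level at 48 h than at 24 h, with 18.3 and 12.0 RPKM for JCGZ_25096 and 13.3 and 9.24 RPKM for JCGZ_18305.

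At 48 h the second by p above 0 h was JCGZ_09907 (1644 bases), at 98.8 and 94.1 RPKM, against 21.6 and 29.2 RPKM at 0 h. It had 56.3 and 48.3 RPKM at 24 h, so its late libraries lay above those of 0 h at both times and higher at 48 h. Below 0 h, JCGZ_15401 (930 bases) came first by the same rule, at 5.62 and 21.2 RPKM, against 241.4 and 151.5 RPKM at 0 h, a difference of -3.99 ± 0.58 (log2, SE; limma adjusted p = 0.904). Its 24 h libraries, 75.2 and 49.4 RPKM, lay between the 2 times. JCGZ_16820 (309 bases) had 12.7 and 7.02 RPKM at 48 h, against 265.0 and 79.5 RPKM at 0 h, where its libraries differed more than 2-fold. At 24 h it had 38.2 and 78.1 RPKM, below both libraries of 0 h.

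Between the pooled times, limma also called 0 of 17323 genes at 48 h against 24 h (0.0%), with 327 at an unadjusted p under 0.05 (1.89%) and 0 by limma-voom. The 0 h libraries enter this comparison only through the estimate of the spread. JCGZ_15738 (540 bases) stood at 26.2 and 25.03 RPKM at 48 h, against 7.46 and 4.01 RPKM at 24 h, with 8.37 and 8.31 RPKM at 0 h. JCGZ_21715 (384 bases) had 10.9 and 9.99 RPKM at 48 h, against 2.73 and 2.77 RPKM at 24 h, with 6.10 and 5.57 RPKM at 0 h. Both were thus above 0 h at 48 h and, in both libraries, below it at 24 h. JCGZ_23779 (501 bases) had 9.13 and 4.33 RPKM at 48 h, against 22.1 and 27.4 RPKM at 24 h, with 10.5 and 9.58 RPKM at 0 h. JCGZ_15168 (429 bases) had 31.4 and 19.4 RPKM at 48 h, against 76.4 and 61.9 RPKM at 24 h, with 33.7 and 44.6 RPKM at 0 h. For the last pair 48 h was below 0 h and 24 h above it, and none of the 4 passed the test (limma adjusted p = 0.925 for each).

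Libraries of the late group differed widely from each other. The 0 h libraries differed by at least 2-fold in 854 genes (4.93%), those of 24 h in 2839 (16.4%) and those of 48 h in 2435 (14.1%). Between a late and a 0 h library the count was lowest for the libraries numbered 2 of 24 h and 0 h, with 888 genes (5.13%), and highest for those numbered 1, with 3904 (22.5%). The widest gap among the 6 lay within the late group, with 5323 genes (30.7%) between library 2 of 48 h and library 1 of 24 h. Between the 48 h and 24 h libraries of the same number, 1011 genes were that far apart in number 1 and 1006 in number 2, and between library 1 of 48 h and library 2 of 24 h the count was 1042.

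The late libraries differed along gene length. Relative to the mean of 0 h, the median difference in library 1 of 24 h was 0.16 (log2) among the shortest of 10 equal classes of genes, with a median of 330 bases, and -0.69 among the longest, with a median of 2985 bases. In library 2 of 48 h it was -0.43 and 0.57. Libraries 2 of 24 h and 1 of 48 h lay between these, and the mean of the 4 showed little trend, with medians of -0.12 to -0.06 in the 10 classes and a Spearman correlation over genes of 0.03. This is a description over genes, with no p.

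**Figure D4:**
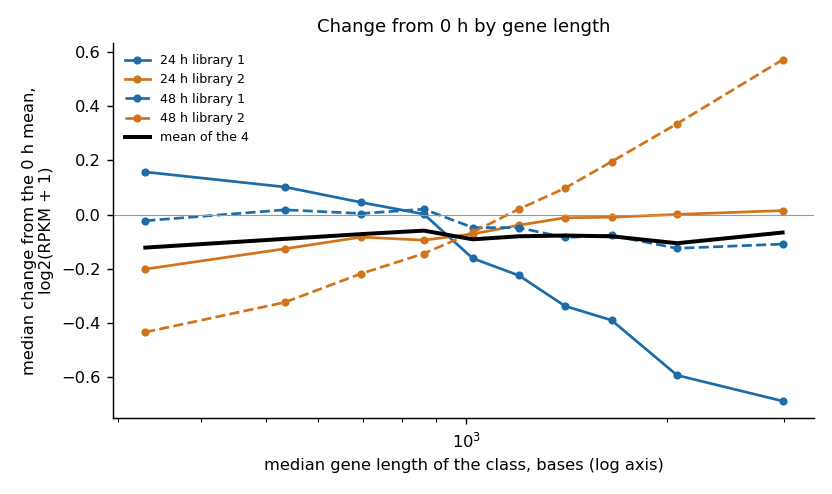
Median difference from the mean of 0 h on log2(RPKM + 1) in 10 classes of gene length (log axis, bases), with a line for each late library and a black line for their mean. Library 1 of 24 h slopes down to -0.69 and library 2 of 48 h up to 0.57, while the mean of the 4 stays between -0.12 and -0.06.

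When late differences were computed within each library number, the numbers shared no library. With number 1 late against library 1 of 0 h and number 2 late against library 2 of 0 h, the differences correlated over the 17323 genes with r = -0.13. In that pairing 60 genes were at least 2-fold higher in both numbers, which is 8.31% of the 722 in number 1 and 16.4% of the 365 in number 2. Another 104 were at least 2-fold lower in both, 5.71% of 1820 and 20.1% of 517, and 147 went 2-fold in opposite directions. With the 0 h libraries exchanged, r was 0.19, 142 genes were higher and 102 lower in both, and 53 went in opposite directions. The early libraries treated alike gave r = 0.34 and 0.54, with 194 and 232 genes higher and 511 and 525 lower in both. These are descriptions over genes that share a library on each side, and the sign of the late agreement turned with the choice of 0 h library.

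The late level itself was tested against the early one, in which 0 h does not enter the difference. Late against early, 268 genes were higher (1.55%) and 207 lower (1.19%), 475 in all (2.74%; limma on all 10 libraries, adjusted p under 0.05). After median centring the numbers were 294 and 150, and by limma-voom 283 and 136. Without single libraries the total was 190 to 373. In 446 of the 475 genes (93.9%) the 0 h mean lay nearer to the late mean than to the early mean, against 62.5% of all genes tested. If plants were treated together, 0 h shares the hour of day with the late times and not with the early ones. The end of a GA3 response and the hour of day therefore cannot be told apart here. On a scale of 0 at the late and 1 at the early level, the median position of 0 h was -0.11 in the 268 higher genes and 0.13 in the 207 lower ones. The median size of the difference from 0 h over the 475 was 0.27 (log2) late and 1.52 early, against 0.19 and 0.28 over all genes. Within 2-fold of 0 h late were 452 of the 475, and 16693 of all 17323 genes tested. In 29 genes 0 h lay nearer to the early level. Of the 475, 117 (24.6%) had late and 0 h libraries that do not overlap, against 12.4% of all genes. The late and early libraries and the spread at 0 h entered the picking of the 475. Picking genes with a clear gap between late and early can itself set these shares, positions and sizes apart from those of all genes. They therefore describe the 475 and test nothing.

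**Figure D5:**
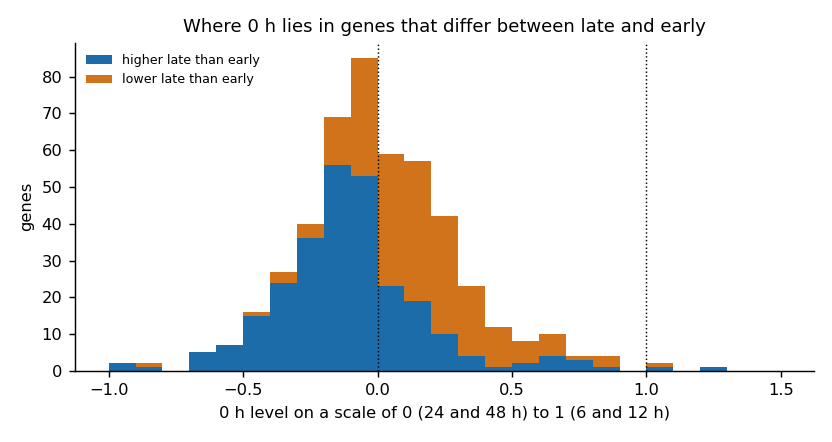
Number of genes by the position of their 0 h mean on a scale of 0 (mean of 24 and 48 h) to 1 (mean of 6 and 12 h), for the 475 genes that differ between late and early, stacked by direction; 1 gene below -1 is drawn at -1. The mass lies around 0, with medians of -0.11 for genes higher late and 0.13 for genes lower late.

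The genes that differed early were followed into the late group as a group, with the same limit on the hour of day. At 6 and 12 h, 333 genes (1.92%) differed from 0 h, 74 of them higher (0.427%) and 259 lower (1.5%; limma on all 10 libraries, adjusted p under 0.05). The total was 18 or 35 without library 1 or 2 of 0 h, and 150 to 220 without single early libraries. The 74 had a median difference of 0.03 (log2) late and 1.79 early, and 1 of them was at least 2-fold higher late. The 259 had medians of -0.47 late and -1.99 early, against a late median of -0.08 over all genes, and 32 were at least 2-fold lower late. Of all 17323 genes tested, 300 were at least 2-fold higher late and 330 at least 2-fold lower. Late and early differences share the 0 h libraries, so these medians and counts are given side by side and not compared. In reads, the 259 genes took 4.44% and 4.34% of the 0 h libraries, 1.43% and 1.504% of those of 6 h, 0.566% and 0.565% of those of 12 h, 5.06% and 3.003% of those of 24 h, and 3.47% and 3.43% of those of 48 h. Their share was thus below both 0 h libraries in 3 of the 4 late libraries and above them in library 1 of 24 h. The 74 genes took 0.219% and 0.186% of the 0 h libraries, 1.07% and 0.877% of those of 6 h, and 0.218% to 0.287% in the 4 late libraries.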

How the data were processed

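The authors deposited 1 table per library listing 28447 gene IDs with their values. Read as RPKM, the values deposited by the authors are whole reads scaled by the length of the gene and the depth of the library, and the unit is not written in the file headers. Bowtie 0.12.2 and the build mm8, a mouse genome, are named with no role, per the submitters' processing notes; neither the genome aligned to nor the counting tool is stated there. Reads were recovered from the ratios of each gene's values between libraries, with 100.0% of 203696 values above 0 whole within 0.01 reads. The recovery itself required this of each gene, so that share does not test it. Gene lengths followed from the denominators; 99.9% of those of locus tags are multiples of 3, hence coding lengths. Limits by reads cover counting error only.

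Libraries were grouped by the labelled time. Libraries of 1 time differed 2-fold in at least 854 genes, so none were merged; the labels do not say whether separate plants were used, and the p-values reflect library-to-library spread, possibly technical in origin. The test was limma (version 3.58.1, under R 4.3.3; eBayes moderation with trend and robust settings) on log2(RPKM + 1), for genes averaging 1 RPKM or more across the 6 libraries. Late against 0 h was a 2-group fit of 6 libraries; 24 h, 48 h and their difference came from a fit of the same 6 with 3 times; comparisons with the early group came from all 10. P-values were adjusted by Benjamini-Hochberg over all genes of a comparison, at 0.05. The fit was tested on simulated data in which libraries varied independently of each other, so spread shared between late libraries was not covered. Because no table pairs the IDs with names, at most 2 IDs per direction and comparison are named: those with the largest change among genes past the threshold, or else those with the smallest p, whose groups do not overlap and whose higher group averages at least 5 RPKM. JCGZ_02890 was added after their values were seen. The comparison, the gene filter and the tests were chosen with earlier results of these data known. Alternatives were pseudocounts, filters, scaling, moderation, a replicate block, a length correction, limma-voom on recovered reads with trimmed-mean scaling, other sets of libraries, and leaving out each library.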

Additional observations from a re-analysis of the deposited data

Results flagged for a closer look

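JCGZ_06853 stands out because 1 of its 4 late libraries lay apart from the rest: library 2 of 24 h, at 25.5 RPKM beside 33.8 to 35.7 RPKM in the other 3, a gap of 0.838 of their whole range on log2(RPKM + 1). Chance flags about 1 in 20 groups, and 4 genes were looked at. All 4 values lie above both libraries of 0 h.

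A second result stands out as a tested difference between times. In 475 genes the late and the early level differed (limma, adjusted p under 0.05), and none of the 14 genes named by the rule was among them (limma adjusted p of 0.0778 or more for each).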

How the results depend on the processing

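The count of 0 genes for late against 0 h, 24 h against 0 h, 48 h against 0 h and 48 h against 24 h held in 73 of 74 alternatives. The exception was added after the data were seen: with a replicate block that pairs library 1 of 0 h with number 2 of the late times, late against 0 h called 12 genes. Whether the numbers pair the 0 h libraries with the late ones is not stated in the labels. The replicate differences correlated over genes at -0.32 (0 h with 24 h) and -0.27 (0 h with 48 h), against 0.70 (24 h with 48 h). With the replicate block as labelled, late against 0 h called 0 genes. The number with all late libraries above 0 h was 687, and 1179 after quantile normalization and 1427 after the length correction. The median difference of late against 0 h, -0.08, was -0.16 to -0.01 without single libraries and 0.01 after the length correction. The 16 results of named genes kept their direction in all 296 alternatives. These genes were picked for groups that do not overlap, so leaving out a library could not turn a direction. In 1 alternative a result crossed the threshold (JCGZ_06853 under the exchanged block, limma adjusted p = 0.0198, against 0.261 without a block). Other fits weakened the same result: its limma adjusted p was 0.740 with 24 h and 48 h as separate times and 0.856 with all 10 libraries.

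Late against early gave 475 genes, and 745 with the replicate block, 717 with the length correction and 1094 with both; without single libraries it gave 190 to 373. Early against 0 h gave 333, and 646, 587 and 943 in the same order; without single libraries it gave 18 to 360. The lowest counts came without library 1 of 6 h (190) and without library 1 or 2 of 0 h (18 and 35); 9 of the 10 single libraries took late against early to 311 or fewer. The causes of these shifts were not tested. With 2 libraries at 0 h, precision was limited to a median half-width of 0.71 (log2), in a fit that took the late libraries as independent.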
